A study of Mus musculus with 11 samples.

Results

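The genes described here are those of the nuclear pore and of the karyopherins, the receptors that carry cargo through it. They were chosen by symbol in the count files: names that begin with Nup or Nupl and a digit were taken as pore genes, and names that begin with Kpna, Kpnb, Ipo and a digit, or Xpo as transport receptor genes. Of 23284 genes, 44 matched, 24 of them pore genes and 20 transport receptor genes. Pore proteins with other names, such as Tpr and Seh1l, were not taken by the rule and are given further on.

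The nuclear pore is a ring-shaped channel through the nuclear envelope. A scaffold of Y complexes and an inner ring holds a central channel of flexible proteins rich in phenylalanine-glycine repeats, with filaments on the cytoplasmic side and a basket on the nuclear side. Importins bring proteins in and exportins take proteins and RNA out, and the small GTPase Ran sets the direction. Importin alpha proteins read the classical nuclear localization signal and ride on importin beta, while most other importins and exportins bind cargo themselves.

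The samples were 11 mouse small cell lung cancer (SCLC) tumors, whose poly(A) RNA was sequenced with a MYCN transgene on or off. Per the labels, every tumor had the genotype Rb;p53 with TRE-MYCN, a MYCN transgene under a doxycycline-responsive promoter, and LSL-RTTA, the transactivator behind a Cre-removable stop. There were 7 tumors with doxycycline (ON DOX) and 4 whose doxycycline had been withdrawn for 7 days (OFF DOX). The drug and the transgene changed together, so their effects cannot be told apart. The labels do not give the age of the animals, the Cre driver, the species of the transgene or the mouse behind each tumor. Tumors could share a mouse, and each p-value refers only to tumor-to-tumor spread, which may be partly technical.

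Reads over genes ranged from 10324089 to 13123838 per ON DOX tumor and from 8951733 to 12190957 per OFF DOX tumor. Mycn ranged from 36.5 to 171 CPM (read counts scaled to depth with TMM factors) in ON DOX and from 5.63 to 15.7 CPM in OFF DOX, with no overlap. All 12 neuroendocrine markers were detected, with summed levels of 2294 to 3848 CPM in ON DOX and 1869 to 8640 CPM in OFF DOX; 1 was called higher in ON DOX and 2 lower. Markers of lung epithelium, 12 in number, summed to 3.54 to 3415 CPM in ON DOX and to 46.9 to 33540 CPM in OFF DOX. By the widest gap in their mean log2 level, ON DOX tumors 3 and 5 and OFF DOX tumors 1, 3 and 4 had a high lung score and the other 6 tumors a low one. Of the 12 lung markers, 3 were called lower in ON DOX. The immune list summed to 143.6 to 666 CPM in ON DOX and 228 to 5364 CPM in OFF DOX, with 7 of 11 tested genes lower, and the part of immune cells in the results was not tested. Endothelium markers summed to 92.1 to 403 CPM in ON DOX and 163 to 974 CPM in OFF DOX, with 3 of 8 lower, and their part was not tested either. Over all genes tested, 13.4% were called lower and 16.0% higher in ON DOX. No lung or immune marker was at 0 in all tumors. In bulk tumors, fewer cells of a type and less RNA per cell cannot be told apart.

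The promoters of 34 members were found in RefSeq tables of the build GRCm38.p6, as windows of 250 bases before to 50 bases after a start site, and were searched for CACGTG. This letter string is the canonical E-box, the DNA word that MYC family proteins bind as dimers with MAX, and it reads the same on both strands. It was in a window of 3 of 19 pore genes (Nup54, Nup93 and Nup188) and of 3 of 15 receptor genes (Ipo4, Ipo7 and Xpot). These are 15.8% and 20% of the genes, beside 9.38% of the 15882 protein-coding genes of the count files that are in the table. The looser string CANNTG was in 42.1% and 33.3% of the member genes and in 71.8% of those protein-coding genes. A match describes letters only, since no binding was measured. The bases before the start site are printed for 4 of these genes to show where the string lies (capitals), in a pore gene and 2 receptors that were higher in ON DOX and in Nup188, a pore gene with 2 matches that was not called.
Nup54 (chr5:92435200-92435449, minus strand): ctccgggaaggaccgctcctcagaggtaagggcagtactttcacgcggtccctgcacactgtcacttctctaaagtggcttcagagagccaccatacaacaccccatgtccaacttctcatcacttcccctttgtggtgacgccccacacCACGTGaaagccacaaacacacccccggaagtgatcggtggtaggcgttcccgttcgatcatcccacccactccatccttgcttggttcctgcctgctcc
Nup188 (chr2:30286166-30286415, plus strand): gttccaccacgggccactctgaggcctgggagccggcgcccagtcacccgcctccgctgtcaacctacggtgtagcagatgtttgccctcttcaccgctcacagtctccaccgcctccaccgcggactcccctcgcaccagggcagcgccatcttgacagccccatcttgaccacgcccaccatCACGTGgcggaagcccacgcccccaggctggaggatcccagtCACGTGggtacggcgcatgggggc
Ipo7 (chr7:110018065-110018314, plus strand): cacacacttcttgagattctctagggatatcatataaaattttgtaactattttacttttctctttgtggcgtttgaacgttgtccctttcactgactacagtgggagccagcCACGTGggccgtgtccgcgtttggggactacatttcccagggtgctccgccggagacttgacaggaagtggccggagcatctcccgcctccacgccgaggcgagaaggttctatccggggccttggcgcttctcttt
Xpot (chr10:121626333-121626582, minus strand): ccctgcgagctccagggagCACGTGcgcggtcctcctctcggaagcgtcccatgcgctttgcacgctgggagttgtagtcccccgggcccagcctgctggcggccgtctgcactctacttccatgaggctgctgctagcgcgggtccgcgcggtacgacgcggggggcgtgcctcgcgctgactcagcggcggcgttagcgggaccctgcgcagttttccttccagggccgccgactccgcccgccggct

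Most pore and transport receptor genes were higher in ON DOX. Of 24 pore genes tested, 14 were called higher and 0 lower at an edgeR adjusted p below 0.05, and of 19 receptor genes tested, 15 were called higher and 0 lower. The pore count was 9, 9 and 8 when OFF DOX tumor 1, 3 or 4 was left out. Over all genes, the number called higher also fell in these fits, from 2437 to 1847, 1784 and 1674. Over all 15237 genes tested, 29.4% were called, 16.0% higher and 13.4% lower. The fold was at least 2 for 10 of the called pore genes and 13 of the called receptors, beside 7.90% of all genes. The median log2 fold change of ON DOX over OFF DOX was 0.82 for pore genes and 1.21 for receptors, beside 0.0023 for all genes tested. Every ON DOX tumor lay above every OFF DOX tumor for 7 pore genes and 11 receptor genes, which holds for 11.4% of all genes tested. The opposite order held for 0 members and for 5.41% of all genes. Kpna7, an importin alpha gene, had 1 read in all 11 libraries and was the only member not tested. The scaling mattered for the balance over all genes: of their calls 54.5% were higher with TMM factors, 37.0% under upper quartile scaling and 28.2% from library totals alone, and the all-gene median shifted by -0.21 and -0.31. With library totals 8 pore and 12 receptor genes were called higher and 0 lower, against 8.64% of all genes.

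**Figure D1:**
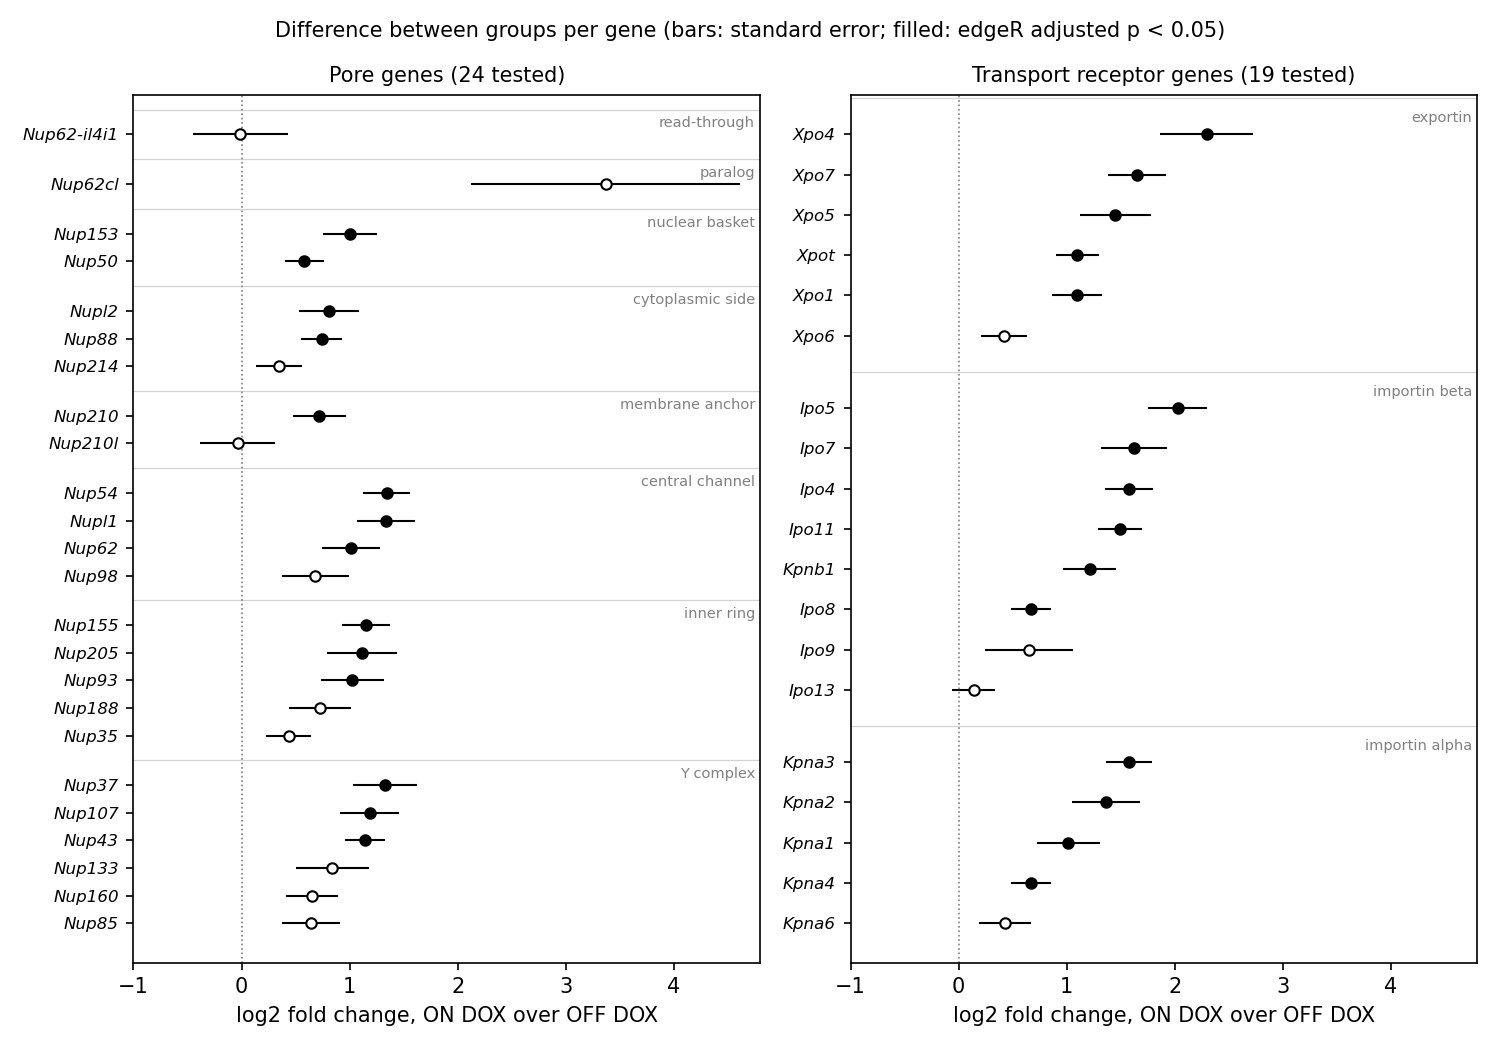
Log2 fold change of ON DOX over OFF DOX (x axis) for 24 pore genes and 19 transport receptor genes, grouped by role, with the standard error as bars; filled points passed an edgeR adjusted p of 0.05. The filled points lie between 0.58 and 1.34 for pore genes and between 0.67 and 2.29 for receptors.

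Y complex genes encode the outer scaffold of the pore. Of 6, 3 were called higher: Nup43, Nup107 and Nup37. Nup43 had a lowest, median and highest value of 28.6, 39.6 and 42.2 CPM in ON DOX and 13.9, 19.5, 18.9 and 15.6 CPM in OFF DOX tumors 1 to 4. The groups did not overlap, and the log2 fold change reached 1.14 (SE 0.18, edgeR adjusted p = 0.00168). Nup107 had 103, 126 and 151 CPM in ON DOX and 33.9, 96.7, 58.2 and 38.9 CPM in OFF DOX. OFF DOX tumor 2 lay just below the lowest ON DOX tumor, and the log2 fold change reached 1.18 (SE 0.27, adjusted p = 0.00872). Nup37 had 21.4, 41.1 and 65.1 CPM in ON DOX and 11.7, 22.0, 13.9 and 16.4 CPM in OFF DOX. OFF DOX tumor 2 exceeded ON DOX tumor 7, and the log2 fold change reached 1.33 (SE 0.29, adjusted p = 0.00755).

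The other 3 Y complex genes were not called: Nup133 (log2 fold change 0.84, SE 0.34, edgeR adjusted p = 0.0806), Nup160 (0.65, SE 0.24, adjusted p = 0.0625) and Nup85 (0.64, SE 0.27, adjusted p = 0.0863). Nup85 had 121, 133 and 202 CPM in ON DOX and 50.4, 155.9, 89.4 and 79.2 CPM in OFF DOX. OFF DOX tumor 2 was above 6 of the 7 ON DOX tumors, and the remaining 3 OFF DOX tumors were below all of them. Without OFF DOX tumor 2, all 3 were called, with log2 fold changes of 1.34 (Nup133), 0.87 (Nup160) and 1.01 (Nup85). That tumor was the highest of OFF DOX for each of them. Leaving it out had to raise these values, so the calls without it add no support.

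Among the 5 inner ring genes, which line the channel and anchor the scaffold to the membrane, Nup155, Nup93 and Nup205 were called higher. Nup155 had 136, 176 and 206 CPM in ON DOX and 46.9, 109.6, 90.5 and 67.6 CPM in OFF DOX. Its groups did not overlap, and the log2 fold change reached 1.15 (SE 0.22, edgeR adjusted p = 0.00381). Nup93 (1.02, SE 0.29, adjusted p = 0.0228) and Nup205 (1.11, SE 0.33, adjusted p = 0.0252) overlapped, each through OFF DOX tumor 2. Nup188 (0.72, SE 0.29, adjusted p = 0.0757) and Nup35 (0.44, SE 0.21, adjusted p = 0.13) were not called.

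Central channel genes encode the repeat-rich proteins that form the permeability barrier. Nup54, Nupl1 (also named Nup58) and Nup62, the partners of 1 complex, were called higher, and Nup98 was not (log2 fold change 0.68, SE 0.31, edgeR adjusted p = 0.113). Nup54 had 93.9, 125 and 158 CPM in ON DOX and 38.3, 65.3, 57.2 and 41.5 CPM in OFF DOX. No tumor overlapped, and the log2 fold change of 1.34 (standard error 0.22, adjusted p = 0.0017) was the largest of the called pore genes. Nupl1 had 40.7, 67.3 and 117 CPM in ON DOX and 28.2, 36.2, 28.3 and 24.4 CPM in OFF DOX. It did not overlap either (log2 fold change 1.33, SE 0.27, adjusted p = 0.00473). Nup62 had 129, 170.1 and 214 CPM in ON DOX and 50.02, 132, 95.7 and 57.0 CPM in OFF DOX, with OFF DOX tumor 2 above ON DOX tumor 5 (log2 fold change 1.01, SE 0.27, adjusted p = 0.0163).

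Nup62-il4i1, a read-through transcript of Nup62 and its neighbor, held 95 reads in all libraries. It had 0.39, 0.86 and 0.97 CPM in ON DOX and 0.40, 1.19, 0.88 and 0.56 CPM in OFF DOX. Its log2 fold change of -0.011 (SE 0.44, edgeR adjusted p = 0.99) was the smallest in size among pore genes. It shares exons with Nup62, so the split of reads between them is uncertain, and the counting mode was not given in the sources used here. Nup62cl, a paralog of Nup62, was below 3 CPM in 9 of the 11 tumors and reached 13.4 and 10.7 CPM in ON DOX tumors 6 and 7. It was not called (log2 fold change 3.37, SE 1.24, adjusted p = 0.0599).

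On the cytoplasmic side, Nup88 and Nupl2 were called higher, and Nup214, the partner of Nup88 in messenger RNA and protein export, was not (log2 fold change 0.35, SE 0.21, edgeR adjusted p = 0.236). Nup88 had the highest level per length of transcript among pore genes, 57.8 CPM per kb averaged over the group means, ahead of Nup85 at 53.9 and Nup62 at 46.4 CPM per kb. Its values were 146, 165 and 229 CPM in ON DOX and 77.9, 146, 101 and 103 CPM in OFF DOX. The groups did not overlap, though ON DOX tumor 5 and OFF DOX tumor 2 nearly met, and the log2 fold change reached 0.74 (SE 0.19, adjusted p = 0.0141). Nupl2 rose by 0.81 (SE 0.28, adjusted p = 0.0479), from 12.2 ± 1.97 CPM in OFF DOX to 21.3 ± 7.04 CPM in ON DOX (SD, n = 4 and 7). The call was close to the threshold and was lost in 20 of 25 alternatives. These include the low-lung and high-lung subsets, in which every member lost its call, and the main fit cut at an adjusted p of 0.01.

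Both nuclear basket genes were called: Nup153 with a log2 fold change of 1.004 (SE 0.25, edgeR adjusted p = 0.0125) and Nup50 with 0.58 (SE 0.18, adjusted p = 0.0307), the smallest among called pore genes. Of the membrane-anchored pair, Nup210 was called (0.72, SE 0.25, adjusted p = 0.0458), a call lost in 19 of the same 25 alternatives. Nup210l, its paralog, stayed at 2.59 to 4.802 CPM in ON DOX and 2.48 to 4.78 CPM in OFF DOX, and its log2 fold change stood at -0.035 (SE 0.35, adjusted p = 0.949).

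Importin beta genes carry cargo directly or through an adaptor. Of 8, 6 were called higher: Ipo5, Ipo7, Ipo4, Ipo11, Kpnb1 and Ipo8. Ipo5, a carrier of ribosomal proteins and histones, had a lowest, median and highest value of 369, 458 and 855 CPM in ON DOX and 133, 148, 119 and 78.9 CPM in OFF DOX tumors 1 to 4. The groups were far apart, and ON DOX tumor 1 stood above the rest. Its log2 fold change reached 2.02 (SE 0.28, edgeR adjusted p = 8.52e-04), or 4.07-fold. Ipo4 had 77.3, 109.7 and 168 CPM in ON DOX and 45.2, 42.8, 30.5 and 30.6 CPM in OFF DOX. It also did not overlap, at a log2 fold change of 1.58 (standard error 0.22, adjusted p = 9.95e-04).

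Ipo11 had 72.9, 107 and 140.4 CPM in ON DOX and 37.9, 44.8, 41.2 and 30.6 CPM in OFF DOX. The OFF DOX tumors lay close together and below all ON DOX tumors, and the log2 fold change reached 1.49 (SE 0.20, edgeR adjusted p = 8.47e-04). Kpnb1, importin beta itself and the partner of the importin alphas, had 562, 741 and 1172 CPM in ON DOX and 233, 503, 349 and 309 CPM in OFF DOX. OFF DOX tumor 2 was nearest to the ON DOX group but did not reach it (log2 fold change 1.21, SE 0.25, adjusted p = 0.00516). Ipo7 rose by 1.62 (SE 0.30, adjusted p = 0.00343) and Ipo8, its close relative, by 0.67 (SE 0.18, adjusted p = 0.019), and neither overlapped.

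Ipo9 and Ipo13 were not called. Ipo9, which imports histones and actin, differed more between tumors than between groups: ON DOX tumors 2, 5 and 7 had 593.5, 504 and 471 CPM, the other 4 had 212 to 302 CPM, and OFF DOX tumors 1 to 4 had 111, 417, 275 and 131.5 CPM. Its log2 fold change reached 0.65 (SE 0.41, edgeR adjusted p = 0.249). Ipo13, which works in import and export, had the smallest difference of the receptors: 51.0, 73.8 and 95.5 CPM in ON DOX and 56.3, 85.8, 80.3 and 54.1 CPM in OFF DOX. The groups overlapped across their range (log2 fold change 0.14, SE 0.20, adjusted p = 0.626), and with library totals the value was -0.17.

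Importin alpha genes were called in 4 of 5 cases. Kpna3 had 151, 168 and 205 CPM in ON DOX and 88.5, 43.7, 52.8 and 43.4 CPM in OFF DOX. It did not overlap, and unlike most members its highest OFF DOX value was in tumor 1 (log2 fold change 1.57, SE 0.21, edgeR adjusted p = 8.47e-04). Kpna2 had the highest level per length of all members, 136 CPM per kb averaged over the group means, followed by Kpnb1 at 98.1 and Ipo5 at 67.1 CPM per kb. Its values were 294, 488 and 579 CPM in ON DOX and 106, 299, 201.5 and 110.0 CPM in OFF DOX. OFF DOX tumor 2 was just above ON DOX tumor 7 (log2 fold change 1.37, SE 0.32, adjusted p = 0.0094). Kpna1 (1.02, SE 0.29, adjusted p = 0.0241) and Kpna4 (0.67, SE 0.18, adjusted p = 0.0194) were called too, and Kpna6 was not (0.43, SE 0.24, adjusted p = 0.194).

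Exportins were called in 5 of 6 cases. Xpo4, an exportin that takes the translation factor eIF5A out of the nucleus, had the largest log2 fold change of the called members, 2.29 (SE 0.43, edgeR adjusted p = 0.00347), at a low level: 11.4, 28.5 and 51.2 CPM in ON DOX and 4.48, 11.3, 6.49 and 5.07 CPM in OFF DOX. The lowest ON DOX tumor, 5, and the highest OFF DOX tumor, 2, were 11.4 and 11.3 CPM. Xpo7 had 138, 189 and 354 CPM in ON DOX and 85.0, 67.6, 65.9 and 59.1 CPM in OFF DOX, with no overlap and a log2 fold change at 1.65 (SE 0.27, adjusted p = 0.00173). Xpot, the transfer RNA exportin, had 244, 346 and 386 CPM in ON DOX and 108, 196, 141 and 142 CPM in OFF DOX. It did not overlap either, and its log2 fold change was 1.10 (SE 0.20, adjusted p = 0.00288).

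Xpo1 (CRM1), the main exportin for proteins with a leucine-rich signal and for ribosomal subunits, was at 504 ± 93.2 CPM in ON DOX and 236 ± 81.2 CPM in OFF DOX (SD, n = 7 and 4). Its log2 fold change reached 1.09 (SE 0.23, edgeR adjusted p = 0.00633), and the ranges did not overlap. Xpo5, which exports microRNA precursors, was called (1.45, SE 0.33, adjusted p = 0.00864), with ON DOX tumor 5 below OFF DOX tumor 2. Xpo6, the exportin of actin, was not called (0.42, SE 0.21, adjusted p = 0.147).

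**Figure D2:**
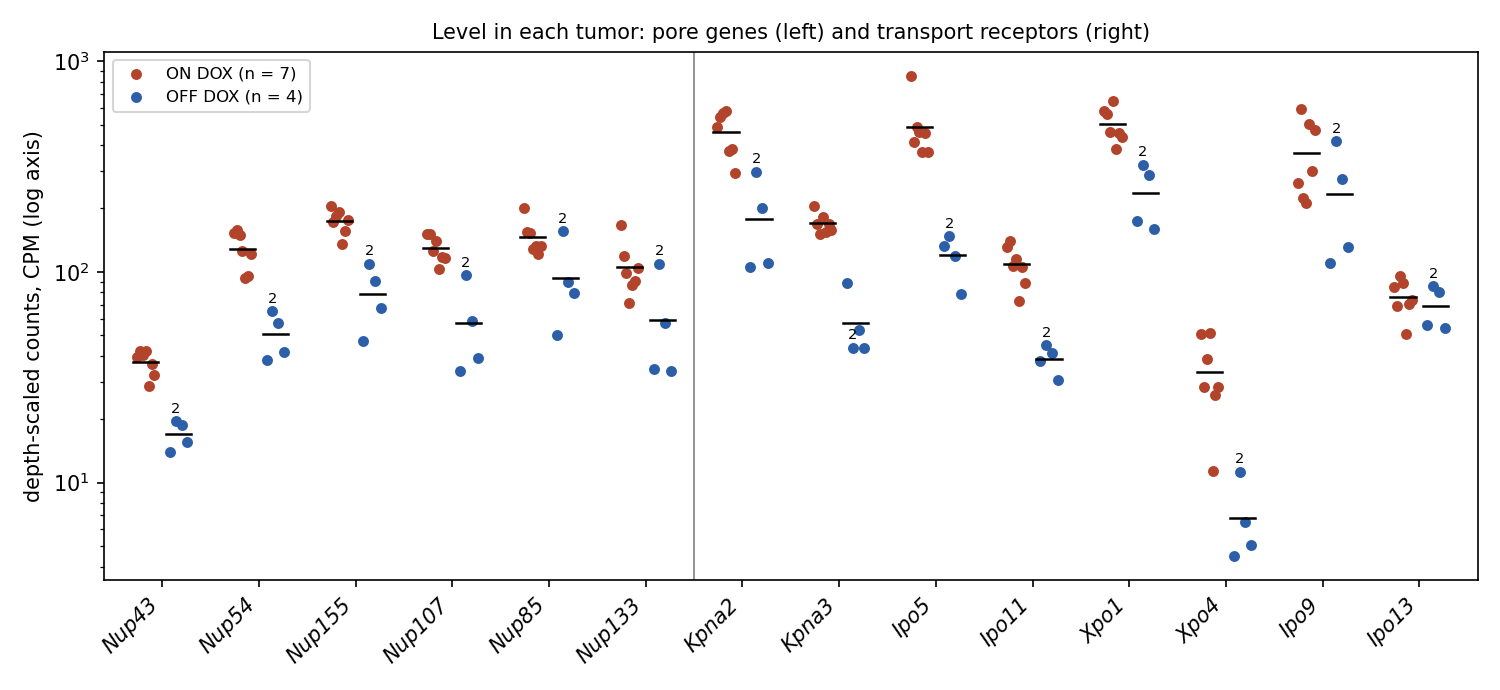
Depth-scaled counts (CPM, log axis) of 6 pore and 8 receptor genes in each of 7 ON DOX and 4 OFF DOX tumors; horizontal lines are group means and the digit 2 marks OFF DOX tumor 2. That tumor lies among the ON DOX tumors for Nup85, Nup133, Kpna2, Ipo9 and Ipo13 and below all of them for Nup43, Kpna3, Ipo5 and Ipo11.

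The order of the tumors within a group was shared by most members. OFF DOX tumor 2 was the highest of the OFF DOX tumors for 22 of 24 pore genes and 15 of 19 receptor genes, beside 37.5% of all genes tested. ON DOX tumor 5 was the lowest of the ON DOX tumors for 16 pore and 13 receptor genes, beside 17% of all genes. The mean log2 CPM of the pore genes was 5.51 in ON DOX tumor 5, 5.87 to 6.04 in the other ON DOX tumors, 5.48 in OFF DOX tumor 2 and 4.598 to 5.11 in the other OFF DOX tumors. The receptor mean was 7.00 in ON DOX tumor 5 and 7.36 to 7.85 in the others, and 6.70 in OFF DOX tumor 2 and 5.96 to 6.42 in the others. The gap between the lowest ON DOX and the highest OFF DOX mean was 0.035 for pore genes and 0.30 for receptors. The pore gap depended on Nup62cl, an uncalled gene with 2.89 CPM in ON DOX tumor 5 and 0.099 CPM in OFF DOX tumor 2. That gap is not a separation of the pore genes as a set. The pore mean minus the receptor mean was -1.59 ± 0.13 in ON DOX and -1.31 ± 0.15 in OFF DOX (SD, n = 7 and 4), with overlapping ranges, and no test was made on it.

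Mitosis markers moved with the pore mean across the OFF DOX tumors. Their score, the mean log2 CPM of 15 genes such as Ccnb1 and Mki67, was 7.15 to 7.99 in ON DOX. In OFF DOX it was 4.85, 7.32, 6.64 and 5.19 in tumors 1 to 4, which is the same order as the pore mean. The receptor mean had tumors 1 and 4 in the other order, at 6.12 and 5.96. In ON DOX the lowest score was in tumor 6 and the lowest pore mean in tumor 5. The OFF DOX lung scores of 10.06, 0.91, 7.12 and 7.88 ran in the reverse order of the pore mean. Of the 15 mitosis genes, 8 were called higher in ON DOX, beside 16.0% of all genes tested. In a fit with the mitosis score as a covariate, edgeR called 0 of 24 pore genes (6 at an unadjusted p below 0.05) and 5 of 19 receptor genes, beside 3.47% of all genes called higher. The 5 receptors were Kpna3 (log2 fold change 1.96, SE 0.30, adjusted p = 0.0181), Ipo4 (1.55, adjusted p = 0.0321), Ipo5 (1.804, adjusted p = 0.0352), Ipo11 (1.16, adjusted p = 0.0399) and Xpo7 (1.70, adjusted p = 0.0472). The median log2 fold change there was 0.28 for pore genes and 0.67 for receptors. Kpna2 had 0.48 in place of 1.37 and Xpo1 0.49 in place of 1.09, neither called there. The part of mitosis itself cannot be told apart from the group in these tumors, also for the 5 receptors still called.

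**Figure D3:**
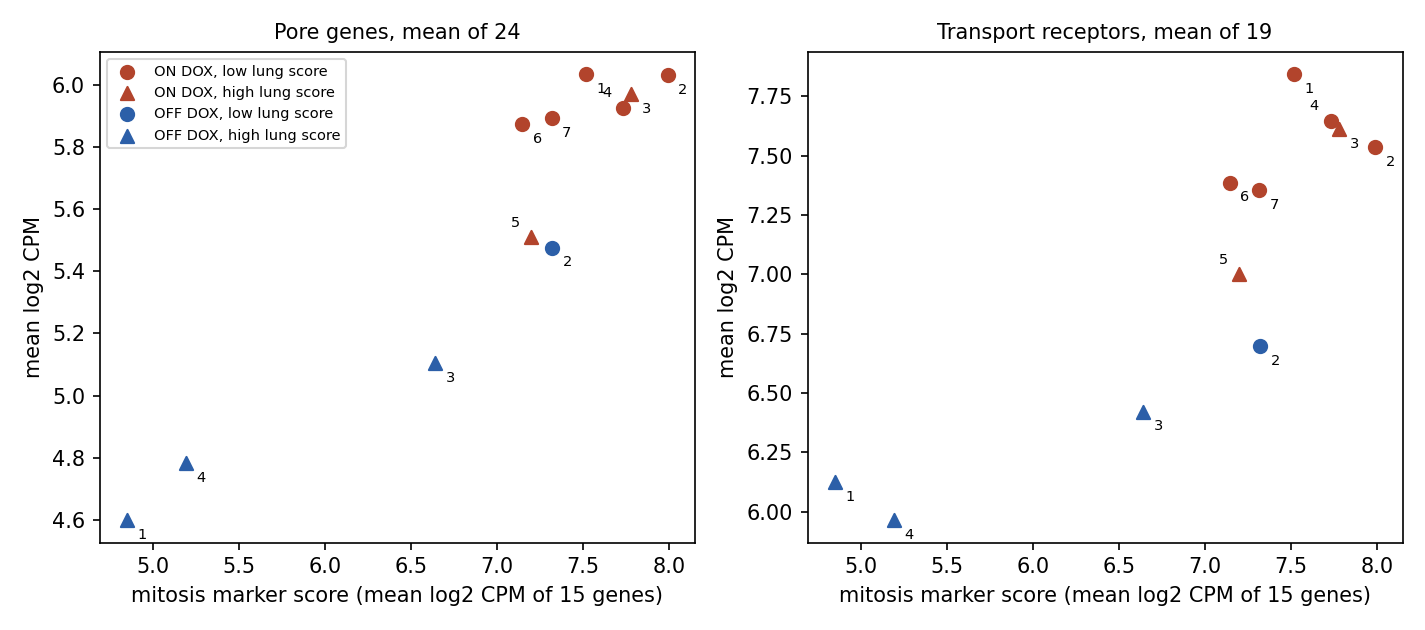
Mean log2 CPM of 24 pore genes (left) and 19 receptor genes (right) against the mitosis marker score in each tumor, with the tumor number beside each point; triangles have a high lung score. OFF DOX tumor 2, at a mitosis score of 7.32, has a pore mean of 5.48 and a receptor mean of 6.70. ON DOX tumor 7, also at 7.32, has means of 5.89 and 7.36. The lowest ON DOX tumor, 5, at a score of 7.20, has means of 5.51 and 7.00.

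Lung tissue was uneven between the groups as well. With the lung score as a covariate, 4 pore genes (Nup43, Nup54, Nup107 and Nup155) and 11 receptor genes were called higher and 0 lower, beside 7.16% of all genes called higher. The receptors not called there were Ipo8 (log2 fold change 0.61, from 0.67 without the score), Kpna1 (0.915, from 1.02), Kpna4 (0.49, from 0.67) and Xpo5 (1.07, from 1.45). Among the 6 tumors with a low lung score, all 5 ON DOX tumors were above OFF DOX tumor 2 for 10 of 24 pore genes and 14 of 19 receptor genes, beside 24.0% of all genes. Among the 5 tumors with a high lung score, both ON DOX tumors were above all 3 OFF DOX tumors for 17 pore and 14 receptor genes, also beside 24.0% of all genes. These were 41.7% and 73.7% of the genes in the low class and 70.8% and 73.7% in the high class, and no test was made on the shares.

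**Figure D4:**
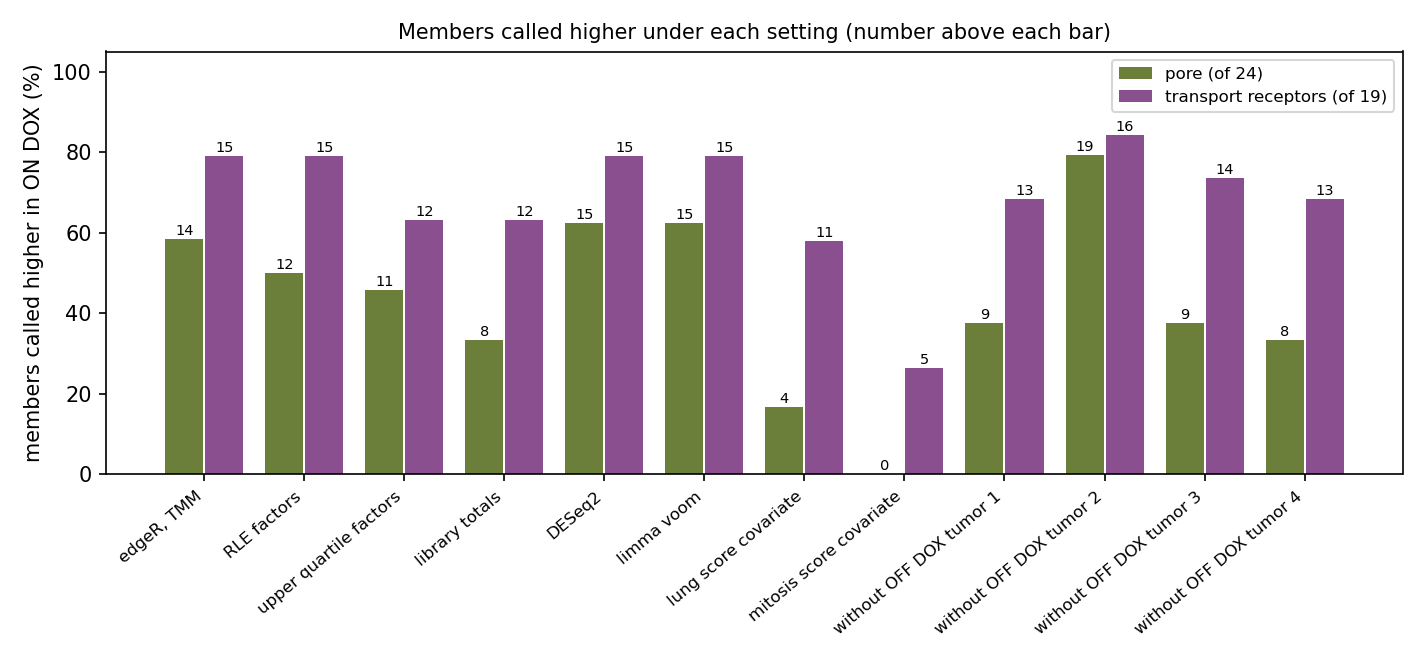
Share of pore genes (of 24) and receptor genes (of 19) called higher in ON DOX under 12 settings, with the number of genes above each bar; edgeR with TMM factors, at the left, called 14 and 15. The lowest bars are those with the mitosis score as a covariate, 0 and 5, and without OFF DOX tumor 2 they reach 19 and 16. That tumor was the highest of OFF DOX for 22 of 24 pore and 15 of 19 receptor genes. Leaving it out had to raise the fold changes of these genes, so the higher counts add no support. Without OFF DOX tumors 1, 3 and 4, pore counts are 9, 9 and 8. Over all genes, 2437 are called higher at the left and 2955 without OFF DOX tumor 2. Without tumors 1, 3 and 4 these are 1847, 1784 and 1674.

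Further pore and receptor genes that the symbol rule did not take were listed by name. Of 10 further pore genes, 6 were called higher and 0 lower, with a median log2 fold change of 0.81. These are 60%, and the further receptors below reached 50%, beside 16.0% of all genes called higher. Seh1l, a Y complex protein, had the smallest p, at 273 ± 43.6 CPM in ON DOX and 91.3 ± 26.0 CPM in OFF DOX (SD, n = 7 and 4; log2 fold change 1.58, SE 0.21, edgeR adjusted p = 8.23e-04). Rae1, a messenger RNA export factor, rose by 0.79 (SE 0.15, adjusted p = 0.00344) and Ahctf1 (ELYS), which starts pore assembly on chromatin, by 1.02 (SE 0.26, adjusted p = 0.0143). Of 6 further receptors, 3 were called higher and 0 lower: Tnpo3, the importin of splicing factors (0.95, SE 0.14, adjusted p = 0.00133), Cse1l, which returns importin alpha to the cytoplasm (1.18, SE 0.26, adjusted p = 0.00697), and Tnpo2 (0.74, SE 0.17, adjusted p = 0.00825). Without OFF DOX tumor 1, 3 or 4, or with library totals, 3, 3, 3 and 2 of the further pore genes were called, and 3 of the further receptors in each case.

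Ran, the GTPase that loads and unloads the receptors, was at 992 ± 241 CPM in ON DOX and 372.5 ± 89.3 CPM in OFF DOX (SD, n = 7 and 4; log2 fold change 1.41, SE 0.23, edgeR adjusted p = 0.00172). Its binding protein Ranbp1 rose by 1.501 (SE 0.22, adjusted p = 0.00108) and Rangrf by 0.93 (SE 0.28, adjusted p = 0.0298). Rcc1, the exchange factor, and Rangap1, the activating protein, were not called (adjusted p = 0.0898 and 0.0568), so 3 of 7 Ran cycle genes were higher and 0 lower, and 6 of 7 without OFF DOX tumor 2. That tumor was the highest of OFF DOX for Rcc1 and Rangap1, so leaving it out had to raise their fold changes. Of 6 transport adaptors, 4 were called higher, among them Ncbp1, the large cap-binding subunit (1.24, SE 0.23, adjusted p = 0.00344), Nmd3, the adaptor of the large ribosomal subunit (1.09, SE 0.23, adjusted p = 0.00582), and Phax (0.64, SE 0.20, adjusted p = 0.0305). The adaptor count was 2 when ON DOX tumor 1 or 2 or OFF DOX tumor 1, 3 or 4 was left out. With all tumors, 42.9% of Ran cycle genes and 66.7% of adaptors were called higher, beside 16.0% of all genes.

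Of 17 messenger RNA export genes tested, 12 were called higher and 0 lower, with a median log2 fold change of 0.82. These are 70.6%, beside 16.0% of all genes called higher. Eny2, a subunit shared by the SAGA and TREX-2 complexes, was at 139.6 ± 10.3 CPM in ON DOX and 62.8 ± 4.10 CPM in OFF DOX (SD, n = 7 and 4; log2 fold change 1.15, SE 0.12, edgeR adjusted p = 3.43e-04). Thoc7 of the THO complex rose by 1.56 (SE 0.22, adjusted p = 9.40e-04) and the helicase Ddx39b by 0.97 (SE 0.15, adjusted p = 0.00141). Nxf1, the main messenger RNA export receptor, had a log2 fold change of 0.16 (standard error 0.14, adjusted p = 0.435). Of 14 nuclear lamina and envelope genes, 2 were higher and 2 lower, with a median of 0.093. These are 28.6% called, near the 29.4% of all genes. Syne1, a giant linker of the nucleus to the cytoskeleton, was at 40.03 ± 15.9 CPM in ON DOX and 146 ± 33.2 CPM in OFF DOX (SD, n = 7 and 4; log2 fold change -1.87, SE 0.29, adjusted p = 0.00144), and Lmna, lamin A/C, had -1.001 (SE 0.29, adjusted p = 0.0254). Banf1 (1.04, SE 0.25, adjusted p = 0.0116) and Lmnb1, lamin B1 (1.44, SE 0.45, adjusted p = 0.0323), were the higher ones, and Lmnb1 was chosen after its value was seen. Without OFF DOX tumor 2, 4 were higher and 1 lower, and 8 messenger RNA export genes were called without OFF DOX tumor 1. With library totals, 7 messenger RNA export genes, 2 Ran cycle genes and 2 adaptors were called higher, beside 8.64% of all genes. With the lung score as a covariate these were 7, 2 and 1, beside 7.16% of all genes. With the mitosis score as a covariate, 1 further pore gene, 0 further receptors, 0 Ran cycle genes, 0 adaptors and 4 messenger RNA export genes were called higher by edgeR, and 1 lamina gene lower. Over all genes, 3.47% were called higher in that fit.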

How the data were processed

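The tumors were lysed in TRIzol and their oligo(dT)-selected RNA was made into NEBNext Ultra libraries, per the labels. The deposited values are raw read counts per gene symbol that the authors made; their processing notes name mouse build mm9 with HTSeq 0.6.1, TopHat2 2.0.8b and bcl2fastq 1.8.4. Annotation, strand and overlap settings are not given in the sources used here, and reads of overlapping genes cannot be assigned with certainty. The 5 summary rows of each file were left out. Reads aligned to several places were 13.8% to 20.9% of each ON DOX library and 9.15% to 11.9% of each OFF DOX library, relative to all records.

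The counts were tested with edgeR 4.0.16 (R 4.3.3): filterByExpr by group (minimum count 10, minimum total 15; 15237 genes), TMM factors and the robust quasi-likelihood test without covariate, Benjamini-Hochberg adjusted over all genes, called below 0.05. Each SE was taken as the size of the log2 fold change divided by the root of its F statistic. Class means use log2 CPM with prior count 2. The fit was tested on simulated data. Alternatives included RLE, upper quartile and no factors, DESeq2 1.42.0, limma 3.58.1 voom, other filters, covariates and each tumor left out. Tumors of the same group differed by more than sampling noise in every pair (chi-square per gene of at least 51.0 in 27 pairs). Lengths are protein-coding exons of GENCODE M21 (42 of 44 members). Members and lists were chosen with earlier results of these data known. Values per tumor are given for the 6 members of each class with the smallest p, the 3 with the highest level per kb and the 1 with the smallest difference. For each list, the rule named up to 3 members with the smallest p. Further genes named with values, such as Xpo4, Ipo9, Nup62cl, Rcc1, Rangap1, Nxf1 and Lmnb1, were chosen after their values were seen. Promoter sequences and their coordinates are RefSeq's, on GRCm38.p6, and no coordinate of the files' own build is given. A planned count of dipeptides in the channel proteins was not run, and protein sequences were not used here.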

Additional observations from a re-analysis of the deposited data

Results flagged for a closer look

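Within a group, a tumor was marked when its gap to the next value exceeded the 95% critical value of Dixon's test. Of 92 gene or mean and group combinations, 6 were marked, where chance marks about 1 in 20. ON DOX tumor 1 was high for Ipo5 (855 CPM, next 485 CPM), Ipo4 (168 CPM, next 113 CPM) and Nup85 (202 CPM, next 155 CPM). It also had the highest Mycn level, 171 CPM. ON DOX tumor 5 was low for Nup214 (49.8 CPM, next 80.0 CPM), for Nup98 (24.0 CPM, next 48.1 CPM) and for the mean of the pore genes (5.51 log2 CPM, next 5.87). It had the lowest Mycn level, 36.5 CPM, and a lung score of 6.96, the highest of the ON DOX group. The part of these in the marked values was not tested.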

How the results depend on the processing

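All 29 called members stayed above 0 in each of the 25 alternatives, and no member was called lower in any. After Nupl2 and Nup210, the calls that held least often were Nup50 (13 of 25), Kpna1 (14) and Kpna4 (15). Next were Nup93 and Nup205 (16 each) and Ipo8 (17). For pore genes, the number called higher moved from 14 to 8 with library totals, 4 with the lung score, 0 with the mitosis score, 6 at an adjusted p below 0.01, and 0 in the low-lung tumors alone (edgeR, 4 at an unadjusted p below 0.05; 5 against 1 tumors, the lone one assumed to vary like the others) and 0 in the high-lung tumors alone (14 at an unadjusted p below 0.05). In these subsets edgeR called 0 of all 15741 and 0 of all 15690 genes, so the counts of 0 say nothing about the members. Leaving out 1 tumor gave 8 to 19: 9 without OFF DOX tumor 1, 9 without tumor 3 and 8 without tumor 4. Calls over all genes moved the same way, from 2437 higher to 1847, 1784 and 1674 in these fits, and to 2955 without OFF DOX tumor 2. The pore median of 0.82 became 0.51 with library totals, 0.57 with the lung score, 0.28 with the mitosis score, 0.35 in the low-lung tumors and 1.04 in the high-lung tumors, and 0.61 to 1.12 with 1 tumor left out. For receptors, the number called moved from 15 to 5 with the mitosis score and to 0 in either lung class alone, where no gene was called (8 and 13 receptors at an unadjusted p below 0.05), with 13 to 16 when 1 tumor was left out. Their median of 1.21 became 0.89 with library totals, 0.91 with the lung score, 0.67 with the mitosis score, 0.71 in the low-lung tumors and 1.29 in the high-lung tumors, and 1.02 to 1.45 with 1 tumor left out. The pore minus receptor difference between groups was -0.28, and -0.35 to -0.24 with 1 tumor left out, alternatives added after seeing the data. The looser CANNTG string gave 42.1% and 33.3% of genes in place of 15.8% and 20%.

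The labels give no pairing of tumors by replicate number. Deviations of same-numbered tumors correlated at -0.16, 0.46, -0.076 and 0.27 over genes. Tumors of different number were not set beside them, so these values cannot decide whether the numbers pair tumors. With the number as a replicate block, 10 pore genes (median 1.02) and 14 receptor genes (median 1.43) were called higher, and 24 of the 29 calls held.

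Signs turned only for members that were not called. Ipo13 was -0.067 with upper quartile factors, -0.17 with library totals, -0.049 with the lung score, -0.31 with the mitosis score and -0.17 in the low-lung tumors. With the mitosis score Ipo9 was -0.12, Kpna6 -0.20, Nup214 -0.14, Nup85 -0.012, Nup98 -0.0602 and Xpo6 -0.083, and with the lung score Nup214 was -0.0092. In the low-lung tumors Ipo9 was -0.20, Kpna6 -0.023, Nup133 -0.015, Nup214 -0.0026, Nup85 -0.099 and Nup210l 0.10. Nup210l was also 0.04 and 0.093 without OFF DOX tumors 3 and 4, within -0.19 to 0.093 when 1 tumor was left out. Nup62-il4i1 was 0.034 with limma voom, 0.35 with the replicate block, 0.043 in the high-lung tumors, 0.094 and 0.064 without ON DOX tumors 5 and 7, and 0.29 and 0.073 without OFF DOX tumors 2 and 3, within -0.22 to 0.29 when 1 tumor was left out, and it failed the low-count filter without ON DOX tumor 3 or 4 and under the stricter filter. The cause was not tested.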
